A study of Mus musculus with 3 samples.

Results

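The barcodes described here come from monocytes and macrophages of skin wounds and had the highest combined levels of 7 genes, Mt2, Saa3, Tnfrsf9, Nos2, Bnip3, Egln3 and Adm, of which few members carried all. Nearly all members came from the day 10 wounds. They were chosen by measured values: each barcode was scored by the mean natural logarithm of 1 + UMIs per 10000 over these 7 genes, and the top 8% by score were taken as members. A UMI (unique molecular identifier) counts 1 captured mRNA molecule. The rule gave 216 members among 2702 barcodes, with 0 members at day 3, 10 at day 6 and 206 at day 10. Because the rule used these 7 genes in these barcodes, every difference between members and other barcodes below is a description of these libraries, with no test.

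The data are droplet single-cell RNA-seq counts of wound monocytes and macrophages, taken from the skin of C57BL6/J males, an inbred mouse strain, at days 3, 6 and 10 after injury. Wound tissue was digested with enzymes, and each day is 1 library made from a pool of 2 mice, so there are no replicates and the mice of a pool cannot be told apart. No genetic change, transgene or treatment is named in the labels beyond the wound, and the gates of the isolation are not given in the sources used here. The 3 libraries held 1472, 1196 and 2209 barcodes with 11199361, 9273960 and 13972817 UMIs at days 3, 6 and 10, and 879, 551 and 1272 barcodes had at least 200 genes, under 10% mitochondrial UMIs and at least 2000 UMIs. The members of day 10 were set against the 561 other day 10 barcodes with at least 1 UMI of C1qa, a macrophage complement gene. Day 10 members held 1650293 UMIs in sum with a median of 7878 per barcode, and the other C1qa-positive barcodes held 5159994 UMIs with a median of 8176. A pair of barcode sequences occurred in more than 1 library (2 barcodes shared between days 6 and 10), and none of them was a member. All intervals below are 95% intervals for counting error alone; the spread between mice was not measured.

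In low oxygen, the prolyl hydroxylases of the Egln family stop marking hypoxia-inducible factor (HIF) for degradation, and HIF then binds short response elements near genes of glucose uptake, glycolysis, blood vessel growth and mitophagy. Egln3 is itself a HIF target that limits the response, Bnip3 is a mitophagy receptor, and Adm encodes the vasodilator peptide adrenomedullin. Metallothioneins such as Mt2 are small proteins that bind zinc and copper, and their genes are switched on through metal response elements. Nos2 encodes the inducible nitric oxide synthase and competes with arginase for arginine, Saa3 is an acute phase apolipoprotein made by activated macrophages, and Tnfrsf9 encodes the costimulatory receptor 4-1BB.

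Promoters of 5 genes are shown because they hold the short cores of the hypoxia and metal response elements. Each is the 250 bases before the annotated start, 5′ to 3′ on the gene's strand, from RefSeq on GRCm38.p6, and capitals mark matches. The metal response core TGCACNC or TGCGCNC, searched on both strands, is marked in Mt2 (chr8:94172368-94172617, plus strand). The hypoxia response core ACGTG, searched on both strands, is marked in Bnip3 (chr7:138909507-138909756, minus strand), Egln3 (chr12:54203875-54204124, minus strand), Ankrd37 (chr8:45999851-46000100, minus strand) and Slc2a1 (chr4:119108495-119108744, plus strand).
Mt2: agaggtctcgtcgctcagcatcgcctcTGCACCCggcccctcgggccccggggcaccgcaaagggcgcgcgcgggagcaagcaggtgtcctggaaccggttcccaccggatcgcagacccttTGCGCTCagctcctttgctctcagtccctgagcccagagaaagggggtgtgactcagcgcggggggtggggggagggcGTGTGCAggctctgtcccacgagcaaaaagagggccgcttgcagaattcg
Bnip3: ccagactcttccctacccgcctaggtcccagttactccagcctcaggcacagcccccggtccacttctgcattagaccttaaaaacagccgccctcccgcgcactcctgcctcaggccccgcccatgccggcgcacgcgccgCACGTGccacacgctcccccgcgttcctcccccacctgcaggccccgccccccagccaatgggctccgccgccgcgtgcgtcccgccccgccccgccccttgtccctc
Egln3: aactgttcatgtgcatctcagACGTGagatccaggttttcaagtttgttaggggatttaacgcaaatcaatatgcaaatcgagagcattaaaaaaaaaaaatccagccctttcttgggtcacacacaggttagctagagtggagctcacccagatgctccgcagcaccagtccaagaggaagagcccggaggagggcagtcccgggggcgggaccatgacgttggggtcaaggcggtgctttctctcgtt
Ankrd37: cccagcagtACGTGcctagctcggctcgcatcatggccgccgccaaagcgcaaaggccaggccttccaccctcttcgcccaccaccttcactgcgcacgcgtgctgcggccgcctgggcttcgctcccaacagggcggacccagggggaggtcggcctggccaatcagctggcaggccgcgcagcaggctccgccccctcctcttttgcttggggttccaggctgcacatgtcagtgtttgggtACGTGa
Slc2a1: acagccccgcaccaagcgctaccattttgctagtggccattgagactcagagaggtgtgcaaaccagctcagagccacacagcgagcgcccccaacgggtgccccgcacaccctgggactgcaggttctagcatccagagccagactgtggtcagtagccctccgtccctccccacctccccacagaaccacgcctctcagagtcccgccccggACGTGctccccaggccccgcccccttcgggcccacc

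The Mt2 window held 3 metal cores, which begin at positions −223, −128 and −50 from the start, and the window of its neighbour Mt1 held 1 at −23. The Bnip3 window held a palindrome that matches the hypoxia core on both strands, Ankrd37 held 2 matches and Egln3 and Slc2a1 held 1 each, while Adm had no match in these 250 bases. Of 32851 promoter windows of this length, 16.6% held the hypoxia core and 21.4% the metal core, and in 224 windows a match of one overlapped a match of the other. Counted by gene, 13 of 19 HIF target genes with a window (68.4%) and 9 of 18 glycolysis genes (50%) held the hypoxia core, against 18.5% of 27025 genes. The metal core was also more frequent in the HIF target windows (11 of 19, or 57.9%) than in all genes (23.8%), so these letters do not set the hypoxia core apart in that list. A match of these letters is a description of the window and not a binding site.

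Members made up 16.2% of the day 10 barcodes (206 of 1272, 14.2 to 18.3%) and 1.81% of the day 6 barcodes (10 of 551, 0.874 to 3.31%). At day 3 there were 0 of 879 (0 to 0.419%). Day 10 thus supplied 95.4% of the members. Since each day is 1 library, day, library and pool of mice cannot be told apart in these shares. The score itself was 0 in 53.9% of barcodes at day 3, 38.3% at day 6 and 27.5% at day 10. It had no gap at the threshold. The 20 members just inside it scored 1.0736 to 1.1121, the 20 barcodes just outside scored 1.0269 to 1.0718, and both sets had a median of 4 rule genes detected. The 20 highest members, all from day 10, scored 1.9294 to 2.3571. The members are therefore the upper end of a continuous range, with no gap that sets them apart.

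**Figure D1:**
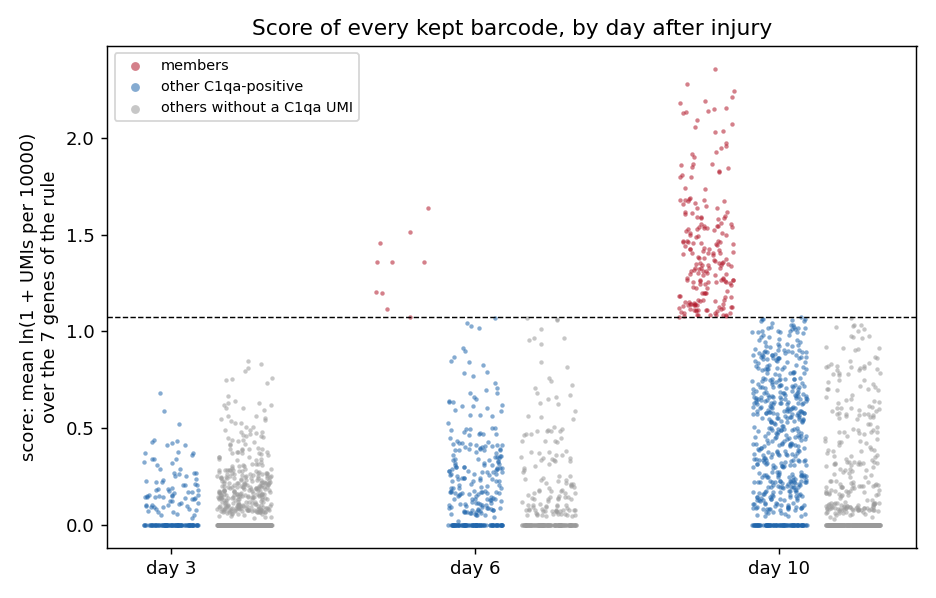
Score of every kept barcode (mean natural log of 1 + UMIs per 10000 over the 7 rule genes, y axis) by day, 1 point per barcode, for members, other C1qa-positive barcodes and others without a C1qa UMI; the dashed line marks the threshold. Members, which lie above the line, number 0 at day 3, 10 at day 6 and 206 at day 10, and the scores have no gap at the line.

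The label of a macrophage held for most members. Of the 206 day 10 members, 150 had a C1qa UMI (72.8%, 66.2 to 78.8%), and the other 56 did not. Csf1r, the receptor for macrophage colony-stimulating factor, stood at 536 CPM (UMIs of the gene scaled to a common total) in members and 525 CPM in other C1qa-positive barcodes, and Mertk, a receptor for dead cells, at 52.1 CPM in members and 56.6 CPM in the others. Other macrophage genes were lower in members. Apoe had 10088 CPM in members and 14761 CPM in the others, a direction that turned against all other kept barcodes (log2 0.25), which include those without C1qa. Adgre1 (F4/80) was 2.37-fold lower, and C1qb was 2.01-fold lower at 1297 CPM in members and 2603 CPM in the others. The comparison barcodes were chosen for C1qa, and with only the C1qa-positive members the difference on the log2 scale was −0.58 for C1qb (−1.01 with all) and −0.92 for Adgre1 (−1.24). Over the 17 mature macrophage genes the median log2 ratio was −0.55, with 0 at least 2-fold higher and 3 at least 2-fold lower. That list summed to 21634 CPM in the 150 members with C1qa and 7593 CPM in the 56 without. The 56 thus had less of the macrophage profile, and more of the classical monocyte genes (1860 CPM, against 947 CPM with C1qa). Of all 9713 genes with at least 20 UMIs over both groups, 3.33% were at least 2-fold higher and 10.5% lower. Their median log2 ratio was −0.19, and the 2-fold counts alone do not set the macrophage list apart.

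Markers of other cell types were low in the members. Dendritic cell markers summed to 8.48 CPM in members and 65.1 CPM in other C1qa-positive barcodes, and fibroblast markers to 41.8 CPM in members and 37.2 CPM in the others. Endothelial markers summed to 55.7 CPM in members and 22.3 CPM in the others, and most of this was Pecam1 (41.2 CPM in members, 19.2 in the others). Neutrophil markers summed to 264 CPM in members and 105 CPM in the others. Of these, 4 of 11 were measured; S100a8, S100a9 and Mmp8 were at least 2-fold higher, and Csf3r was at 33.3 CPM in members and 31.4 CPM in the others. Against all other kept barcodes S100a9 was lower in members (log2 −0.63), and with only the C1qa-positive members S100a8 was under 2-fold (log2 0.78). The defining neutrophil genes Ly6g, Retnlg, Ngp and Stfa2l1 had 0 UMIs in both groups, and Cxcr2 had 1 UMI in each. T cell, B cell, NK cell, mast cell, keratinocyte and erythroid markers each summed to at most 2.42 CPM in members.

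Of the genes the rule used, the highest shares of members carried Bnip3, Mt2 and Egln3, and Nos2, Saa3 and Adm were each in a minority of them. Among day 10 members 99.5% had a Bnip3 UMI, against 69.3% of other C1qa-positive and 16.8% of dendritic-cell-like barcodes. The last were 184 day 10 barcodes with a median of 14004.5 UMIs, deeper than the 7878 of members. They serve as a rough gauge of UMIs from free RNA. Only non-members with under 3 UMIs of C1q genes were taken, a choice that can make the gauge low. Not all their UMIs need be free RNA, since 78 Tnfrsf9 UMIs lay in 9 of them, up to 19 in 1. Mt2 was found in 94.7% of members, 49.6% of other C1qa-positive and 8.15% of dendritic-cell-like barcodes. Egln3 was found in 90.3% of members, 43.5% of other C1qa-positive and 2.72% of dendritic-cell-like barcodes. Fewer members carried each of the other genes. Tnfrsf9 was in 61.7% of members, 16.9% of other C1qa-positive and 4.89% of dendritic-cell-like barcodes, and Nos2 in 43.2% of members, 5.70% of other C1qa-positive and 1.09% of dendritic-cell-like barcodes. Saa3 was in 38.8% of members, 12.5% of other C1qa-positive and 1.63% of dendritic-cell-like barcodes, and Adm in 33.5% of members, 2.50% of other C1qa-positive and 1.63% of dendritic-cell-like barcodes. With every barcode thinned to 2000 UMIs, which left none out, the order of the groups was the same for each gene. That members stood above the others in these genes follows from the rule. Thinned, Bnip3 was in 89.3% of members, 43.3% of other C1qa-positive and 4.35% of dendritic-cell-like barcodes, and Mt2 in 83.0% of members, 28.5% of other C1qa-positive and 1.63% of dendritic-cell-like barcodes. Egln3 was then in 58.7% of members, 15.7% of other C1qa-positive and 1.09% of dendritic-cell-like barcodes, and Tnfrsf9 in 52.4% of members, 7.84% of other C1qa-positive and 3.26% of dendritic-cell-like barcodes. The other 3 genes had no UMI in dendritic-cell-like barcodes after thinning: Nos2 was in 22.3% of members and 1.25% of other C1qa-positive barcodes, Saa3 in 30.1% of members and 5.88% of the others, and Adm in 14.6% of members and 0.89% of the others.

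In summed levels at day 10, Mt2 (chr8:94172664-94173568) had 1682 CPM in members and 267 CPM in other C1qa-positive barcodes. Its level in C1qa-positive non-members was 3.92 CPM at day 3, 111 CPM at day 6 and 267 CPM at day 10, so it was higher on each later day outside the members too. Saa3 (chr7:46711998-46715700) had 1420 CPM in members and 115 CPM in the others, but the 10% of members with the most held 80.8% of its UMIs and 1 barcode held 447. Nos2 (chr11:78920787-78960254) had 227 CPM in members and 13.8 CPM in the others, and 0 UMIs in the C1qa-positive barcodes of day 3. The fold differences were 6.29 for Mt2, 12.3 for Saa3, 16.5 for Nos2, 9.93 for Tnfrsf9 (676 CPM in members, 68.0 in the others), 3.27 for Bnip3 (1189 CPM in members, 364 in the others), 4.25 for Egln3 (436 CPM in members, 103 in the others) and 29.4 for Adm (102 CPM in members, 3.49 in the others), and these are values the rule used.

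The 7 genes did not all meet in the same barcode. Members had a median of 5 of the 7, other C1qa-positive barcodes of day 10 had a median of 2, and 4 members had all 7. Of 206 day 10 members, 30 carried both Saa3 and Nos2, and 28 both Saa3 and Tnfrsf9. All but 1 of the 216 members carried at least 1 of the 3 HIF genes Bnip3, Egln3 and Adm and at least 1 of the other 4. A score from the 3 HIF genes and one from the other 4 had a Spearman correlation of 0.62 over 711 C1qa-positive barcodes of day 10, which share library and depth, and their top 8% lists shared 111 barcodes (51.4% of each). When barcodes were chosen by the 3 HIF genes alone, the 4 genes that this choice did not use were still higher than in the other C1qa-positive barcodes of day 10: Mt2 was at 1484 CPM in the barcodes so chosen and 335 CPM in the others, or 4.43-fold, Saa3 at 3.46-fold, Tnfrsf9 at 3.55-fold and Nos2 at 199 CPM in the barcodes so chosen and 16.7 CPM in the others, or 11.9-fold. When they were chosen by the 4 others, Bnip3 was 2.66-fold, Egln3 2.75-fold and Adm 13.7-fold higher. Each gene left out of the choice was thus higher in the barcodes chosen by the others. The 7 genes were picked together with earlier results of these data known. These values are therefore a description of the set and no independent evidence that its genes belong together. The counts are of the same UMIs, so depth is shared between the scores.

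Across all genes with at least 20 UMIs over both groups at day 10, 323 of 9713 (3.33%) were at least 2-fold higher in members and 1023 (10.5%) at least 2-fold lower. The median log2 ratio of all 9713 genes was −0.19. With TMM scaling, which moved ratios by 0.13 on the log2 scale, the counts were 451 higher and 816 lower, and with median-of-ratios scaling, which moved them by 0.15, they were 469 and 796. A list whose median log2 ratio lies between −0.13 and 0 in CPM therefore has a median above 0 with either of these scalings. These background shares stand beside the member counts for orientation, because the rule used the same contrast. HIF target genes, of which the 7 rule genes were left out, had 11 of 22 measured at least 2-fold higher, 1 at least 2-fold lower and a median log2 ratio of 0.98. Summed, they stood at 7626 CPM in members and 3765 CPM in other C1qa-positive barcodes. The ranges overlapped: per barcode and per 10000 UMIs the lowest, median and highest sums were 9.85, 76.0 and 160 in members, and 0, 36.3 and 140 in the others.

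Ero1l, an oxidase that forms disulfide bonds in the endoplasmic reticulum, had 771 CPM in members and 153 CPM in other C1qa-positive barcodes, a 5.03-fold difference (4.6 to 5.51). The glucose transporter Slc2a1 (GLUT1) stood at 600 CPM in members and 193 CPM in the others, 3.11-fold higher, and Ndrg1, a hypoxia and stress gene, at 416 CPM in members and 127 CPM in the others, 3.28-fold higher. The collagen prolyl hydroxylase P4ha2 was 3.42-fold, the mitochondrial adenylate kinase Ak4 3.63-fold and the HIF hydroxylase Egln1 2.36-fold higher. Mitochondrial genes of the list were higher as well: Fam162a stood at 460 CPM in members and 183 CPM in the others, Higd1a at 433 CPM in members and 197 CPM in the others and the mitophagy receptor Bnip3l at 374 CPM in members and 182 CPM in the others. Vegfa, the vessel growth factor, stood at 1028 CPM in members and 545 CPM in the others, 1.89-fold higher and so under the 2-fold mark. The exceptions were Bhlhe40 at 164 CPM in members and 186 CPM in the others and the glycolysis regulator Pfkfb4 at 11.5 CPM in members and 23.3 CPM in the others, 2.02-fold lower. Hif1a mRNA itself stood at 627 CPM in members and 580 CPM in the others (1.08-fold). HIF is regulated mainly as a protein, which these counts do not measure. In the list of HIF pathway genes, Egln1 was the 1 of 6 measured that was at least 2-fold higher, and the median log2 ratio was 0.11.

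The measured glycolysis genes were higher by smaller amounts. Of 15, all had a ratio above 1, but 1 reached 2-fold, and the median log2 ratio was 0.71, with sums of 14682 CPM in members and 9036 CPM in other C1qa-positive barcodes. That gene was the lactate exporter Slc16a3 at 481 CPM in members and 220 CPM in the others; with only the C1qa-positive members it was just under 2-fold (log2 0.99). Pgk1 stood at 1551 CPM in members and 815 CPM in the others, Hk2 (hexokinase) at 324 CPM in members and 176 CPM in the others, Ldha at 1188 CPM in members and 738 CPM in the others and Gapdh at 4400 CPM in members and 2877 CPM in the others. Per barcode and per 10000 UMIs the quartiles were 117, 136 and 161 in members and 52.4, 84.4 and 120 in the others. Oxidative phosphorylation genes went the other way, with 0 of 20 at least 2-fold higher, 1 at least 2-fold lower (Cycs, cytochrome c, at 76.4 CPM in members and 155 CPM in the others) and all 20 ratios below 1 in CPM; the highest, Sdhd of complex II at −0.09 on the log2 scale, lay nearer to 0 than either other scaling moved ratios. The median log2 ratio was −0.51, beside −0.19 for all 9713 genes. Of all these genes 3.33% were at least 2-fold higher and 10.5% at least 2-fold lower, so the 2-fold counts alone do not set this list apart. Mitochondrially encoded UMIs were a median of 2.48% of a barcode in members and 3.68% in other C1qa-positive barcodes.

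**Figure D2:**
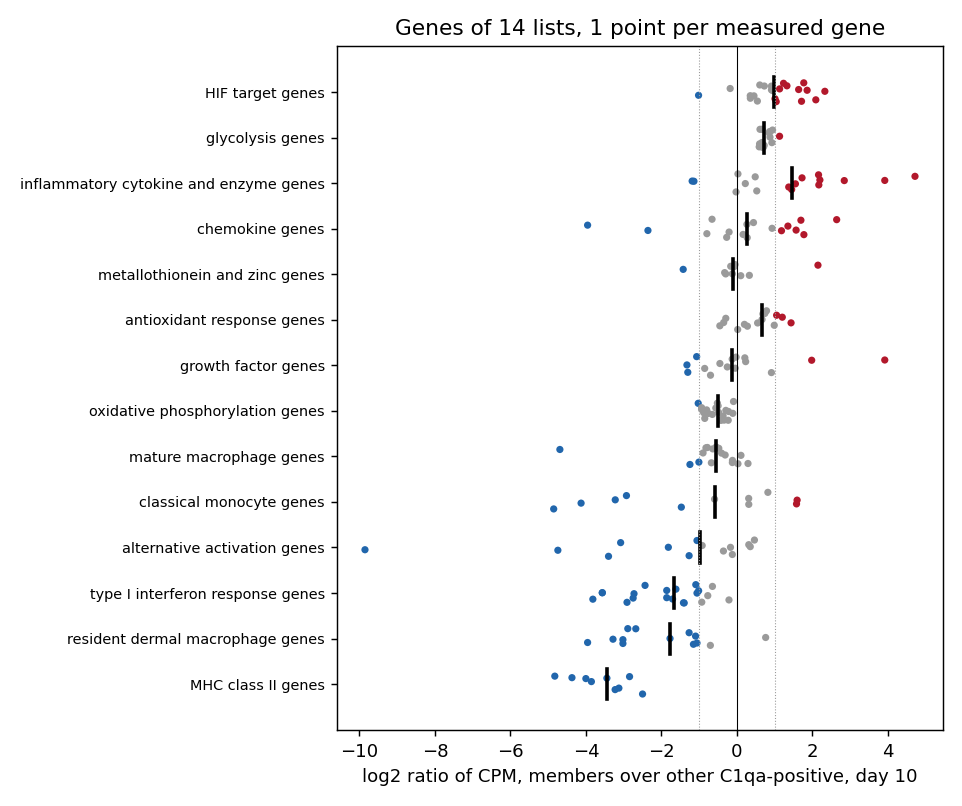
Log2 ratio of CPM in members over other C1qa-positive barcodes at day 10 for 14 gene lists, 1 point per measured gene; red and blue mark genes at least 2-fold higher and lower, dotted lines that limit, and black bars the list medians. Among these lists the medians run from 1.45 (inflammatory cytokine and enzyme genes) to −3.44 (MHC class II genes).

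Mt1 (chr8:94179082-94180327), which lies beside Mt2 and was not used by the rule, had 7388 CPM in members and 1666 CPM in other C1qa-positive barcodes, 4.44-fold higher (4.31 to 4.56). No other gene of zinc handling came near it: of 10 measured genes of the metallothionein and zinc list, Mt1 was the 1 at least 2-fold higher, the zinc importer Slc39a10 (8 UMIs in members, 67 in the others) was the 1 at least 2-fold lower, and the median log2 ratio was −0.10. Mtf1, the zinc sensor that binds metal response elements, had 33 UMIs in members and 82 in the others, or 1.26-fold in CPM. Mt1 and Mt2 are similar genes, and whether the counting moved UMIs between them was not tested. In the C1qa-positive barcodes of day 3, Mt1 stood at 247 CPM and Mt2 at 3.92 CPM.

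Some genes of arginine use were higher in members, among them Nos2, which the rule used. Besides Nos2, Arg1 (arginase, which makes ornithine and urea) stood at 8571 CPM in members and 3057 CPM in other C1qa-positive barcodes, 2.80-fold higher. The mitochondrial arginase Arg2 stood at 112 CPM in members and 40.7 CPM in the others (2.75-fold) and the arginine transporter Slc7a2 at 95.7 CPM in members and 24.4 CPM in the others (3.92-fold). The rest of this list did not follow. Of 14 measured genes 3 were at least 2-fold higher and 2 lower, with a median log2 ratio of −0.23; spermidine synthase Srm was 3.08-fold lower, and Gch1, which starts synthesis of the Nos2 cofactor tetrahydrobiopterin, was 1.39-fold higher. Slc7a11, the cystine importer, stood at 741 CPM in members and 274 CPM in the others (2.71-fold), the heme oxygenase gene Hmox1 at 2903 CPM in members and 1398 CPM in the others (2.08-fold), and 3 of 15 antioxidant genes were at least 2-fold higher with none lower, with a median log2 ratio of 0.67. For both lists, the shares over all 9713 genes were 3.33% at least 2-fold higher and 10.5% lower.

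Inflammatory cytokine and enzyme genes had the highest median of the lists at day 10, the rule genes left out, 1.45 on the log2 scale, with 10 of 17 at least 2-fold higher and 2 lower. Il1a stood at 235 CPM in members and 51.2 CPM in other C1qa-positive barcodes (4.6-fold), Il1b at 4310 CPM in members and 1662 CPM in the others (2.59-fold), and the inflammasome sensor Nlrp3 at 511 CPM in members and 187 CPM in the others (2.74-fold). The prostaglandin enzymes were both higher: Ptgs2 (COX-2) stood at 1825 CPM in members and 551 CPM in the others and Ptges at 89.1 CPM in members and 19.8 CPM in the others, 4.51-fold. Acod1, which makes itaconate, was 4.48-fold higher. Csf3 (G-CSF) had 59 UMIs in members and 7 in the others, a ratio of 26.4 (12 to 68.4), but 36 of the 59 lay in 1 of the 8 member barcodes that carried it. Il6 had 23 UMIs in members and 10 UMIs in the others, the 23 in 4 barcodes. Tnf (301 CPM in members, 215 in the others) and the IL-1 receptor antagonist gene Il1rn (253 CPM in members, 248 in the others) were nearer to parity. The 2 lower genes were the interleukins Il10 (11.5 CPM in members, 26.2 in the others) and Il18 (9.70 CPM in members, 21.3 in the others). With only the C1qa-positive members, like the barcodes they were set against, the log2 ratio was 3.75 for Csf3 (4.72 with all), 1.505 for Il1a (2.20) and −0.81 for Il10 (−1.18). Neutrophil markers moved with this list, and their part in it was not tested. Per barcode the list was uneven, with quartiles per 10000 UMIs of 16.5, 61.3 and 126 in members and 5.69, 15.7 and 46.6 in other C1qa-positive barcodes.

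Among chemokine genes, 6 of 17 were at least 2-fold higher and 2 at least 2-fold lower, with a median log2 ratio of 0.27. Over all genes, 3.33% were at least 2-fold higher and 10.5% lower. The higher ones included the neutrophil attractants Cxcl1 (1030 CPM in members, 403 in the others), Cxcl2 (19918 CPM in members, 8774 in the others) and Cxcl3 (1140 CPM in members, 333 in the others) and the monocyte attractants Ccl2 (843 CPM in members, 260 in the others) and Ccl3 (1147 CPM in members, 386 in the others). The last of the 6 was Ccl5, with 16 UMIs in members and 8 in the others, and its ratio turned round when all other kept barcodes were the comparison (log2 −1.90). With only the C1qa-positive members Cxcl3 was just under 2-fold (log2 0.99, against 1.78 with all). Ccl8, a product of resident macrophages, was lower, at 15.8 CPM in members and 244 CPM in the others (15.5-fold), as was Ccl12 at 5.45 CPM in members and 27.9 CPM in the others. Attractants of neutrophils were thus higher in members, and Ccl8 and Ccl12 lower.

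Growth factor genes as a list had no common direction, with 2 of 15 at least 2-fold higher, 3 lower and a median log2 ratio of −0.12. Beside this and the matrix list below, 3.33% of all genes were at least 2-fold higher and 10.5% lower. The higher ones were Inhba, the subunit of activin A, at 217 CPM in members and 14.3 CPM in other C1qa-positive barcodes (15.1-fold, 11.7 to 19.7), and placental growth factor Pgf at 81.2 CPM in members and 20.5 CPM in the others (3.95-fold). Inhba was found in few barcodes, 37 of 206 members and 22 of 561 others, and its log2 ratio was 2.73 with only the C1qa-positive members, against 3.92 with all. Igf1 (33 UMIs in members, 258 in the others, 2.5-fold lower in CPM) and Pdgfa (33.9 CPM in members, 83.5 in the others) were lower. Of 20 matrix and protease genes 5 were at least 2-fold higher and 1 lower, with a median log2 ratio of 0.33. Mmp12, the macrophage elastase, stood at 2000 CPM in members and 757 CPM in the others (2.64-fold), but with only the C1qa-positive members its log2 ratio was 0.66 and under the 2-fold mark. The other higher genes included the neutrophil-type collagenase Mmp8 with 143 UMIs in members and 72 UMIs in the others (6.21-fold in CPM) and thrombospondin Thbs1 with 2896 CPM in members and 1331 CPM in the others; the gelatinase Mmp9 was at 22.4 CPM in members and 48.1 CPM in the others, and its direction turned when barcodes were thinned before scoring (log2 0.04). The proteoglycan Vcan stood at 255 CPM in members and 85.3 CPM in the others.

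The other genes with the largest ratios have no common list. Gadd45a, a growth arrest gene, stood at 390 CPM in members and 53.7 CPM in other C1qa-positive barcodes (7.27-fold, 6.3 to 8.4). Selenbp1, a sulfur-oxidizing enzyme, stood at 181 CPM in members and 36.2 CPM in the others (5-fold), and Fcor, a corepressor of Foxo1, at 187 CPM in members and 45.5 CPM in the others (4.11-fold). The protease inhibitor Slpi stood at 328 CPM in members and 89.1 CPM in the others (3.68-fold) and the Notch ligand Jag1 at 138 CPM in members and 38.6 CPM in the others (3.58-fold). Of these, Slpi depended on how members were chosen: its log2 ratio was 1.88 with the rule, 1.03 with only the C1qa-positive members and 0.45 with the 3 HIF genes alone, where Il6 was at 0.71 and Csf3 at 1.68. Genes induced by tissue dissociation had 2 of 21 at least 2-fold higher, 1 lower and a median log2 ratio of −0.01, although Egr1 stood at 1480 CPM in members and 621 CPM in the others and Hspa1b at 84.8 CPM in members and 236 CPM in the others. The shares over all genes were 3.33% higher and 10.5% lower.

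**Figure D3:**
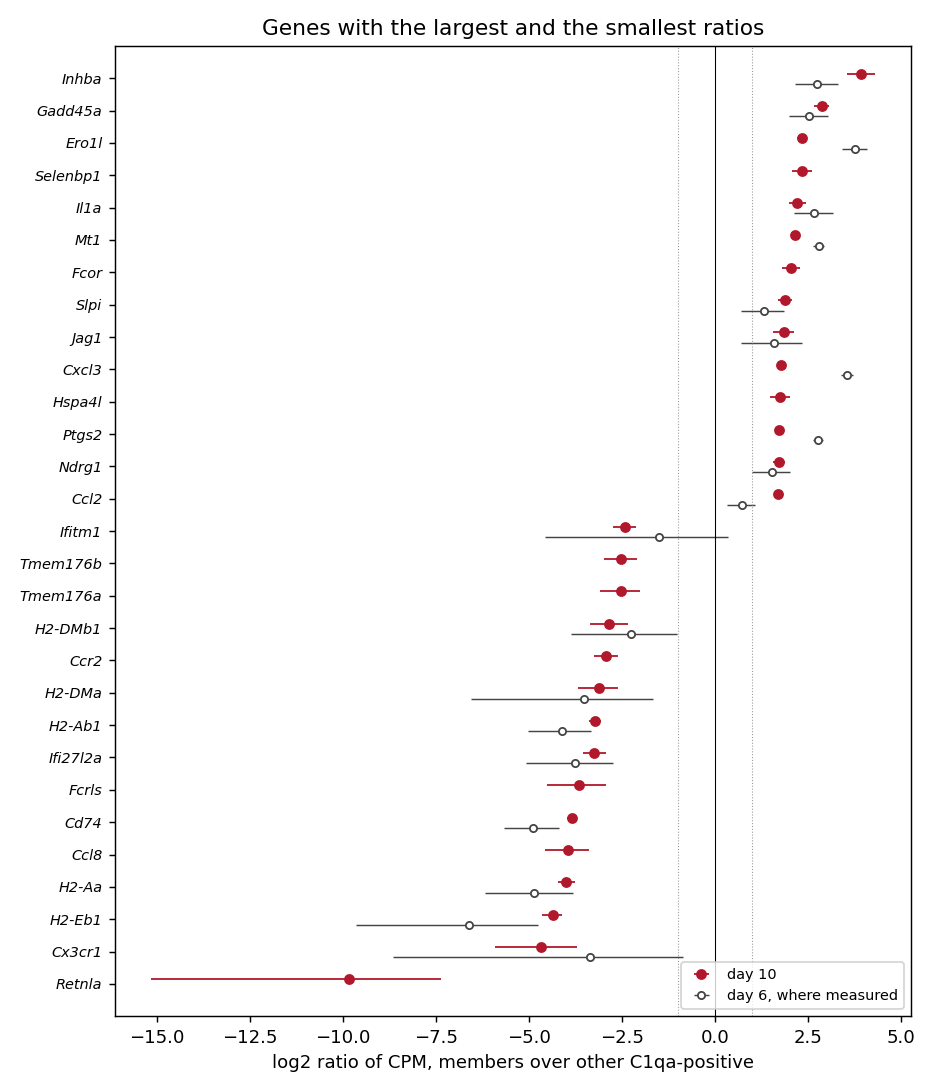
Log2 ratio of CPM in members over other C1qa-positive barcodes for 14 of the 15 highest and the 15 lowest named genes of day 10, with 95% counting intervals; open points give day 6 where the gene was measured, and dotted lines mark 2-fold. Of these, Inhba is highest (3.92) and Retnla lowest (−9.85), with the widest interval.

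Antigen presentation genes had the lowest median of the lists at day 10. All 9 MHC class II genes, which present peptides to T cells, were at least 2-fold lower in members, with a median log2 ratio of −3.44, and their sum was 730 CPM in members and 9922 CPM in other C1qa-positive barcodes. H2-Aa stood at 100 CPM in members and 1599 CPM in the others (16-fold lower), H2-Eb1 at 72.7 CPM in members and 1502 CPM in the others (20.7-fold lower) and the invariant chain Cd74 at 323 CPM in members and 4669 CPM in the others (14.5-fold lower). The peptide loaders H2-DMa and H2-DMb1 were 8.73-fold and 7.17-fold lower, and Ciita, the transcription factor that controls these genes, had 2 UMIs in members and 177 in the others, a ratio of 28.3 (7.72 to 236). The sums rested on the upper tail of the other barcodes. Per 10000 UMIs the median was 2 in members and 3.44 in the others, the third quartile 4.35 in members and 26.0 in the others, and the highest 186 in members and 924 in the others. Of the members, 35.0% were at or above the median of the others. Most barcodes of either group therefore had little of these genes, and barcodes with much of them were rare among members. The members here include the 56 without a C1qa UMI, in which the list summed to 1375 CPM, against 492 CPM in the 150 with one. Dendritic cell markers, which were also lower in members, moved with this list. Without barcodes that had at least 3 UMIs of them, an alternative chosen after seeing the data in which the top 8% was taken again (170 members and 567 others at day 10), the log2 ratio was −4.25 for H2-Aa (−4.00 with them) and −4.58 for H2-Eb1 (−4.37). It was nearer to 0 for Cd74 (−3.65, against −3.85 with them), H2-Ab1 (−2.83, against −3.23), H2-DMb1 (−2.39, against −2.84) and Ciita (−3.74, against −4.82).

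Genes of dermal resident macrophages had 11 of 13 at least 2-fold lower and none at least 2-fold higher, with a median log2 ratio of −1.77. For this list and the next, 10.5% of all genes were at least 2-fold lower and 3.33% higher. The chemokine receptor Cx3cr1 stood at 4.85 CPM in members and 125 CPM in other C1qa-positive barcodes (25.8-fold lower, 13 to 60), Fcrls at 9.09 CPM in members and 115 CPM in the others, Cbr2 at 9.09 CPM in members and 88.4 CPM in the others and Lyve1 at 3.64 CPM in members and 23.3 CPM in the others. The lectin Mgl2 had 3 UMIs in members and 251 in the others. F13a1, a transglutaminase of the same list, was the exception at 1223 CPM in members and 720 CPM in the others, 1.70-fold higher, and it dominates the summed level of the list (1806 CPM in members, 2271 in the others). Alternative activation genes had 7 of 14 at least 2-fold lower, none at least 2-fold higher, and a median log2 ratio of −0.99. This list does not hold Arg1, which was 2.80-fold higher in members. Retnla, an alternative activation gene, had 1 UMI in members and 2890 in the others, but 1828 of those were in 1 barcode and 30 of 561 barcodes carried any; its log2 ratio was −9.85, and −1.18 when barcodes were thinned before scoring. Mrc1 (CD206) stood at 258 CPM in members and 487 CPM in the others and the selenium carrier Selenop at 284 CPM in members and 629 CPM in the others.

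Type I interferon response genes had 16 of 20 at least 2-fold lower, with all 20 ratios below 1 and a median log2 ratio of −1.66. Beside this list and those that follow, 10.5% of all genes were at least 2-fold lower and 3.33% higher. Isg15 stood at 12.7 CPM in members and 46.1 CPM in other C1qa-positive barcodes, Irf7 at 18.8 CPM in members and 39.9 CPM in the others, and Ifit3 had 0 UMIs in members and 62 in the others, at least 6.61-fold lower taking 3 UMIs in members as the floor. Most of these genes had few UMIs, and the per-barcode medians were 1.15 per 10000 UMIs in members and 2.13 in the others. Classical monocyte genes split. Ccr2, the receptor for Ccl2, stood at 49.1 CPM in members and 373 CPM in the others (7.59-fold lower), Plac8 was 17.5-fold lower, and Ms4a4c had 0 UMIs in members and 271 UMIs in the others, at least 28.9-fold lower on the same floor. Ly6c2 was at 18.8 CPM in members and 15.1 CPM in the others. F10, coagulation factor X, stood at 393 CPM in members and 130 CPM in the others (3.02-fold higher). Of 11 genes of the list, 2 were at least 2-fold higher and 5 lower, with a median of −0.59. The list summed to 1193 CPM in members and 1068 CPM in the others. Per barcode its median was 8.70 per 10000 UMIs in members and 5.47 in the others, higher in members. Lipid handling genes had 1 of 16 higher and 4 lower; lipoprotein lipase Lpl stood at 61.8 CPM in members and 231 CPM in the others (3.74-fold lower) and the lysosomal lipase Lipa at 38.8 CPM in members and 120 CPM in the others. Of 14 S phase and 12 G2/M genes, 9 and 11 were at least 2-fold lower, but G2/M UMIs were 0 in 81.6% of members and 82.2% of the others, and the sums (39.4 CPM in members, 107 in the others) differ through few barcodes.

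These differences were graded across the score. The C1qa-positive barcodes of day 10 were placed in 5 bands of non-members by rising score (91, 115, 114, 134 and 107 barcodes) and 2 bands of members (75 each). HIF target genes summed to 1909, 2210, 3820, 4925 and 5856 CPM in the bands of non-members and 6873 and 7599 CPM in those of members. MHC class II genes summed to 27197, 14389, 7100, 3284 and 1527 CPM, and then 353 and 635 CPM, so their decline began far below the threshold. Arg1 stood at 340, 1011, 2443, 5203 and 5902 CPM, and then 7994 and 9096 CPM. Gadd45a had its largest step at the threshold, while Mt1 rose in every band. Gadd45a stood at 16, 33.7, 49.1, 66.5 and 101 CPM in non-members and at 335 and 403 CPM in members, and Mt1 at 440, 683, 1045, 1950 and 4411 CPM, and then 6530 and 9790 CPM. Cx3cr1 was at 257, 176, 144, 55.6 and 18.2 CPM, and then 3.28 and 5.04 CPM. Glycolysis genes levelled off, with 12744 CPM in the highest band of non-members and 13930 and 13834 CPM in members. Mature macrophage genes stood at 24112, 23747, 25870, 26463 and 28636 CPM in the bands of non-members and at 24084 and 19127 CPM in members, so they were highest in the band just under the threshold. Dendritic cell markers lay mostly in the band with a score of 0, at 290 CPM, and the lowest bands thus hold the barcodes with most MHC class II UMIs as well.

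**Figure D4:**
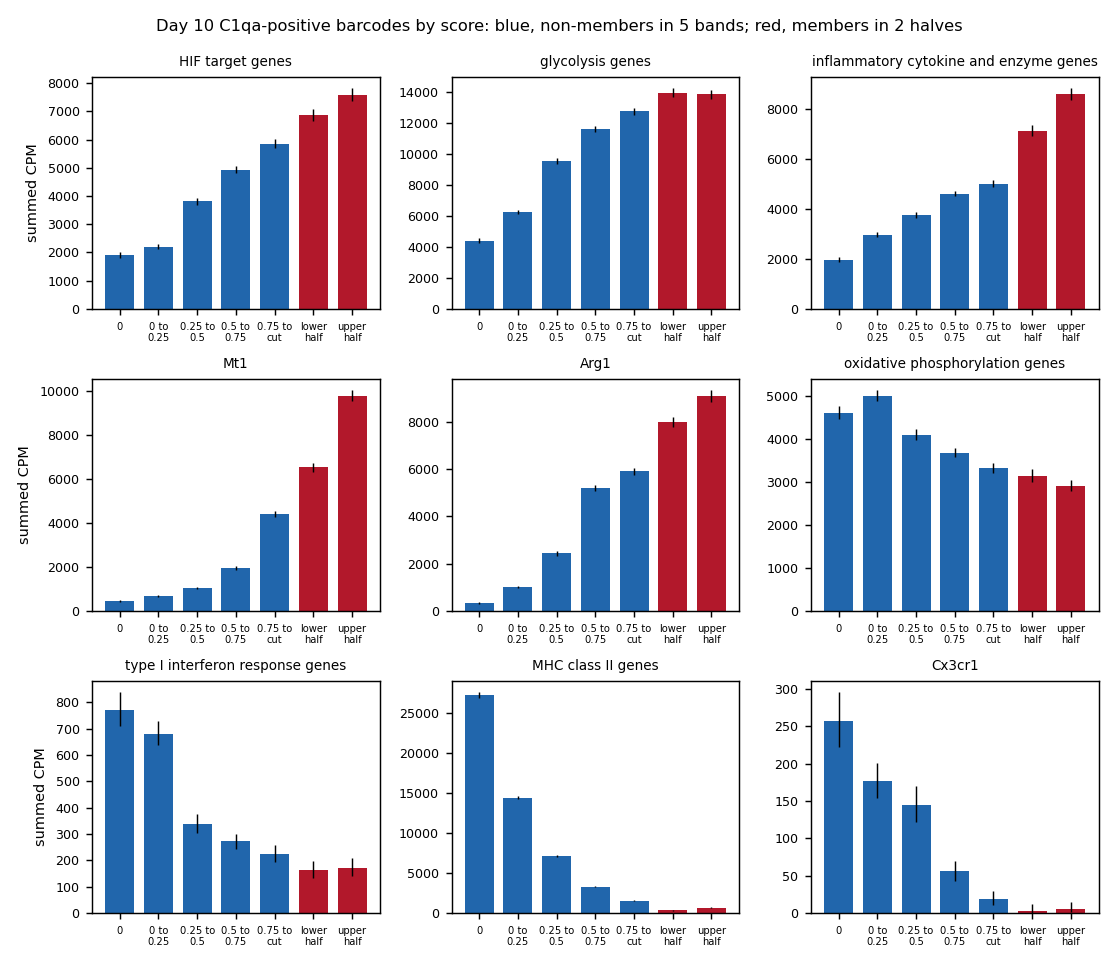
Summed CPM of gene lists and single genes in C1qa-positive barcodes of day 10, in 5 bands of non-members by rising score (blue; the last ends at the threshold) and the lower- and higher-scoring 75 members each (red), with 95% counting intervals. HIF target genes stand at 1909 CPM in the lowest band and 7599 CPM in the highest, and MHC class II genes at 27197 and 635 CPM.

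Members differed among themselves. The 89 day 10 members with a Nos2 UMI and the 117 without one had nearly the same level of Mt1 (7457 CPM with Nos2, 7327 without), Mt2 (1688 CPM with Nos2, 1676 without) and Bnip3 (1239 CPM with Nos2, 1144 without). HIF target genes were 1.15-fold and glycolysis genes 1.20-fold higher in those with Nos2. Inflammatory products were not shared in this way. Inhba stood at 427 CPM in members with Nos2 and 27.6 CPM in those without (15.5-fold, 10.2 to 24.5), Il1a at 406 CPM with Nos2 and 81.7 CPM without, Slpi at 538 CPM with Nos2 and 140 CPM without, and Mmp12 at 3113 CPM with Nos2 and 999 CPM without. Of the 59 Csf3 UMIs in members, 58 lay in those with Nos2. Macrophage genes were lower with Nos2: C1qb stood at 683 CPM with Nos2 and 1848 CPM without and Apoe at 5319 CPM with Nos2 and 14377 CPM without. MHC class II genes summed to 1151 CPM with Nos2 and 352 CPM without, higher with Nos2. Members with Nos2 were deeper, with a median of 8544 UMIs against 6770, which raises the chance of finding a Nos2 UMI. Neutrophil markers summed to 355 CPM in members with Nos2 and 183 CPM in those without; their part in the differences was not tested.

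Members were also split by C1qa and by Saa3. The 150 members with C1qa had 95.4 CPM of Inhba, 145 CPM of Il1a and 1197 CPM of Mmp12, against 546, 478 and 4174 CPM in the 56 without C1qa. Saa3 stood at 1753 CPM with C1qa and 517 CPM without, and Mt1 at 8141 CPM with C1qa and 5351 CPM without, while Nos2 stood at 165 CPM with C1qa and 393 CPM without. Apoe stood at 12485 CPM with C1qa and 3601 CPM without, and neutrophil markers summed to 218 CPM with C1qa and 389 CPM without. The 80 members with Saa3 had 78.8 CPM of Slpi, against 523 CPM in the 126 without Saa3, and more Apoe (13462 CPM with Saa3, 7455 without). Levels of one rule gene in members with and without another are set in part by the choice of members, since a barcode without one must reach the threshold through the others. Over members and other C1qa-positive barcodes together, thinned to 2000 UMIs, Saa3 had a Spearman correlation of 0.085 with Nos2 and 0.011 with Tnfrsf9 (767 barcodes of 1 library). HIF target genes stayed within a factor of 0.83 to 1.15 across the 3 splits. Inhba, Il1a, Slpi and Mmp12 were thus higher, and C1qb and Apoe lower, in members with Nos2, in those without C1qa and in those without Saa3.

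**Figure D5:**
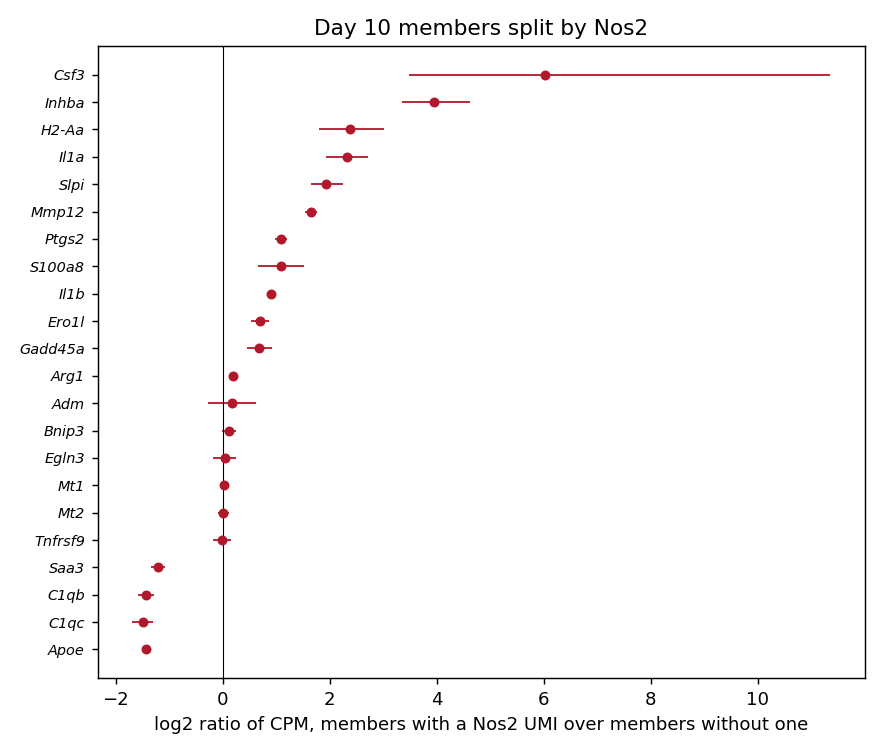
Log2 ratio of CPM in day 10 members with a Nos2 UMI over day 10 members without one, with 95% counting intervals, 1 point per gene. Mt1 and Mt2 lie near 0 (0.03 and 0.01), Inhba at 3.95, and C1qb and Apoe at −1.44 and −1.43. For the other rule genes shown, the ratio is set in part by the choice of members.

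The 10 members of day 6 held 99039 UMIs, and 5 of them had a C1qa UMI; they were set against 285 other C1qa-positive barcodes of that library. Genes counted as measured at day 6 were those with at least 20 UMIs over both groups and at least 5 expected in members, a limit added after seeing the data, and 207 of 2870 (7.21%) were at least 2-fold higher and 526 (18.3%) at least 2-fold lower. Mt2 had 3130 CPM in members and 111 CPM in the others, Mt1 5028 CPM in members and 734 CPM in the others, and Ero1l 1000 CPM in members and 74.5 CPM in the others. Arg1 (8845 CPM in members, 1335 in the others), Mmp12 (8845 CPM in members, 1114 in the others), Ptgs2 (5473 CPM in members, 811 in the others) and Inhba (323 CPM in members, 48.2 in the others) were higher as at day 10. Of the 32 Inhba UMIs in these members, 19 lay in 1 of the 3 barcodes that carried it, and 90 of the 93 Saa3 UMIs lay in 1 barcode. HIF target genes had 11 of 15 at least 2-fold higher, none lower and a median log2 ratio of 1.44, and glycolysis genes 9 of 12 and a median of 1.30, beside −0.23 for all genes of that day. MHC class II genes were again lower, 6 of 6 measured, at a summed 475 CPM in members and 11969 CPM in the others. Interferon response genes did not share the day 10 direction. Of 8 measured at day 6, 1 was at least 2-fold higher and none lower, with a median log2 ratio of −0.01; Isg15 stood at 172 CPM in members and 186 CPM in the others. Whether this differs from day 10 was not tested.

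Of the 64 genes at least 2-fold higher at day 10 that were measured at day 6, 63 had a ratio above 1 at day 6 (98.4%), against 37.3% of the 2866 genes measured on both days, and of 163 lower ones 152 were below 1 (93.3%, against 62.7%). Both days used the same rule, with no barcodes in common, so the genes the rule used or that travel with them are shared by construction of the score. Erythroid markers had 0 UMIs in the day 6 members and 12679 (3617 CPM) in the other C1qa-positive barcodes of that day, and at day 10 they had 0 UMIs in members and 5 UMIs in the others. Neutrophil markers summed to 1030 CPM in the day 6 members and 173 CPM in the others, with S100a8 at 404 CPM in members and 65.6 CPM in the others; 7 of the 11 markers were at 0 in those members, and their part in the day 6 values was not tested.

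These values rest on 1 library a day, on members that share a score of 7 genes, and on sums over barcodes in which a few can carry a gene.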

How the data were processed

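Per the labels, monocytes and macrophages of skin wounds were run on the 10x Chromium platform, with 1 library for each of days 3, 6 and 10. The deposited files hold raw UMI counts per gene and barcode, which the authors made with Cell Ranger 3.0.2 (genome build mm10), per the submitters' processing notes. The values are whole numbers, not normalized; the sources used here name no annotation release. The chemistry reads transcript ends, so splice forms were not told apart. Gene coordinates came from GENCODE vM21, found for 30934 of 31053 identifiers.

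Barcodes with at least 200 genes, under 10% mitochondrial UMIs and at least 2000 UMIs were kept and scored as described above. Counts were summed over the barcodes of a group and scaled to CPM. With 1 library a day, nothing was tested and values are set side by side. CPM values carry exact Poisson, ratios exact conditional binomial and shares exact binomial (Clopper-Pearson) 95% intervals, and a group at 0 UMIs was set to a floor of 3 UMIs. A gene was measured at day 10 with at least 20 UMIs over both groups. Dendritic-cell-like barcodes were non-members with at least 3 UMIs of dendritic cell markers and under 3 of C1q genes. Named genes were the 15 highest and the 15 lowest by ratio among genes with at least 100 CPM in a group (leaving out rule, mitochondrial, ribosomal and unnamed genes and markers of other cell types), the HIF target and glycolysis lists, the 2 most extreme members of each other list in each direction, and the 7 rule genes. Some genes this rule selects are not reported here. Further list members, such as Il1b, Mmp12, Hmox1 and Thbs1, were chosen after their values were seen. The members and all 36 lists were chosen with earlier results of these data known, and so were the splits of members by Nos2, C1qa and Saa3.

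At a score limit of 0.25, set after seeing the data because the automatic limit was not stable, Scrublet called 3, 1 and 5 barcodes at days 3, 6 and 10, none of them a member; these few calls are no doublet filter, and doublets were kept. The sums and intervals were tested on simulated data. Tools were Python 3.11.15, numpy 2.4.6, pandas 2.3.3, scipy 1.17.1, scanpy 1.11.5, matplotlib 3.10.9, R 4.3.3 and edgeR 4.0.16, which supplied only the TMM factors. Alternatives changed 1 choice at a time: the share taken as members, the genes and depth of the score, the comparison barcodes, the mitochondrial limit, doublets, scaling, weighting, the UMI minimum and the deepest members.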

Additional observations from a re-analysis of the deposited data

Results flagged for a closer look

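Barcodes left out for a mitochondrial share of 10% or more were not used in any comparison, and some of them had member-level scores. At day 10, 5 of 411 such barcodes with enough genes and UMIs (1.22%, 0.396 to 2.82%) scored at or above the lowest member, and 3 of the 5 had a C1qa UMI. This share is above 0.730%, a floor of 3 barcodes, but its interval reaches below that floor. At day 6 there was 1 of 437 (0.229%), and at day 3 there were 0 of 379.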

How the results depend on the processing

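No paired analysis was possible because each day is 1 library and replicate numbers link no samples. Of the 96 named genes at least 2-fold different at day 10, 67 kept this and their direction under each of 18 alternatives in which they were measured. Of 1712 single values, 1597 did. The rule genes are among both the 96 and the 67. Members were chosen by them, so their part of these counts follows largely from the rule. The percent of members from day 10 (95.4%) was 90.3% with a score from Mt2, Saa3, Tnfrsf9 and Nos2, and 100% with the 10 deepest members left out, which by construction removed every day 6 member. The count of higher genes (323) was 628 against all other kept barcodes, 162 at a minimum of 100 UMIs, where fewer genes were measured (6226), and 2993 with no minimum, where 14647 were measured and the floor of 3 UMIs sets the ratio of the rarest; the count of lower genes (1023) was 360 at a minimum of 100 UMIs. Against all other kept barcodes the medians were 1.25 for HIF target genes (0.98 in the report) and 1.02 for glycolysis genes (0.71). Among genes at least 2-fold different in the report, the directions that turned were those of Mmp9 (log2 0.038 with thinned scores) and, against all other kept barcodes, S100a9 (−0.63) and Ccl5 (−1.90). Among genes under 2-fold, Apoe (0.25, against −0.55 in the report), C1qc (0.09, against −0.90), Cd81 (0.18, against −0.40) and Mertk (0.70, against −0.12) turned against all other kept barcodes, and Mertk, Csf1r, Tmem119, Mtf1, Hif1a and Csf3r, all near 0 in the report's comparison, turned under others. The cause was not tested. Without barcodes carrying dendritic cell markers, an alternative added after seeing the data, 303 genes were higher and 1040 lower. Of the 216 members, the score from the 3 HIF genes shared 154 and the score from the other 4 shared 171.

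Depth limits the rare genes: at 2000 UMIs a barcode, 22.3% of day 10 members had a Nos2 UMI, against 43.2% without thinning, and genes with few UMIs have wide intervals. No interval covers the spread between mice, since each library pools 2.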
